A study of Mus musculus with 66 samples.

Results

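The 10 genes described here are the closest relatives of 8 of the 9 chromatin regulators and transcription factors that were depleted in cultured mouse neurons: Chd7 and Chd9 (relatives of Chd8), Dnmt1 and Dnmt3b (of Dnmt3a), Kdm6a (of Kdm6b), Kmt2d (of Kmt2c), Kmt2e (of Setd5), Mbd6 (of Mbd5), Med13 (of Med13l) and Eomes (of Tbr1). They were picked by symbol for their family relation, by a rule that uses no measured value, and no relative was taken for the ninth target, Ash1l. These genes, the lists of further related genes and the comparisons were nonetheless chosen with earlier results of these data known. All 10 were found among the 30084 gene symbols of the count table, and all 10 passed the filter on low counts that left 16145 genes for testing. The question asked of each gene was whether its transcript rises when its relative is depleted, and how it behaves in the other knockdowns.

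Neurons were taken from wildtype (WT) mouse embryos at e16.5, with males and females cultured apart, and carried no mutation in any group. Lentivirus delivered a short hairpin RNA (shRNA, which directs the cell's own silencing machinery to a matching transcript) against Ash1l or 1 of the 8 targets given above in brackets, or a nontargeting shRNA as control, and a further group had no virus. The virus was taken off on culture day 6, and polyA RNA of cells lysed on day 10 went into a stranded mRNA library kit. Each of the 11 treatments had 3 libraries in each sex, 66 libraries in 22 groups, and the labels speak of triplicate wells without saying whether these came from separate cultures or animals, so p-values measure the spread between such libraries, which may be technical. Doses had been set by RT-qPCR for a target level of about 50%, so every knockdown is a reduction and not a loss. In bulk RNA, fewer cells of a type and less RNA per cell cannot be told apart.

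Paralogues arise from gene duplication and often keep the catalytic or binding domain of their common ancestor while diverging elsewhere. For some chromatin regulators the loss of a gene is known to be buffered by its relative, either because the relative is already present and takes over or because its transcription goes up. In neurons the pairs differ in how much they share: Kmt2c and Kmt2d do the same chemistry at enhancers, Med13 and Med13l are alternative parts of one Mediator module, while Tbr1 and Eomes act one after the other as cortical progenitors become neurons.

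How far a hairpin could reach both members of a pair depends on the stretches of sequence they share, so the longest run of identical coding bases was found for each pair in the GENCODE M21 transcripts (build GRCm38, the same as mm10). A hairpin guide is matched over about 21 bases. Of the 8623 windows of 21 bases in Chd8 transcripts, 4 occurred in a Chd7 transcript, and of the 17028 windows in Kmt2c transcripts, 28 occurred in Kmt2d. For the other 8 pairs none of the target's windows was found in the paralogue. Only perfect matches of all 21 bases were counted. The identical runs of 20 bases in Chd8 and Chd9 and in Med13l and Med13 thus count as none. Partial matches were not searched, so these counts do not show which paralogues a hairpin could reach. The hairpin sequences themselves were not used here. The pairs of Chd7, Med13 and Dnmt3b are shown, since they cover a remodeller, the member with the lowest value in its own knockdown and a pair with the same enzymatic role, each as coding sequence in the direction of transcription with 10 bases on either side, and the capitals mark the shared run: the Chd8 and Chd7 run of 23 bases at chr14:52215899-52215921 (minus strand) and chr4:8839582-8839604 (plus strand), the Med13l and Med13 run of 20 bases at chr5:118671036-118671055 (plus) and chr11:86345986-86346005 (minus), and the Dnmt3a and Dnmt3b run of 18 bases at chr12:3896037-3896054 (plus) and chr2:153667551-153667568 (plus).
Chd8: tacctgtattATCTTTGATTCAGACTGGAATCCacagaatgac
Chd7: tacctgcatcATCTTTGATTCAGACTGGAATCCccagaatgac
Med13l: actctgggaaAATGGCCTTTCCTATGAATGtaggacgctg
Med13: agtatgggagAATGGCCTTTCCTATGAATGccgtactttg
Dnmt3a: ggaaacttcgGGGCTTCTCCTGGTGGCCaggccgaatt
Dnmt3b: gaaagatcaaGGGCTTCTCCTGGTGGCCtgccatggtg
The Kmt2c and Kmt2d run, 37 bases long, lies in a CAG repeat in both genes. At the other end, Dnmt3a and Dnmt1 shared no coding run longer than 13 bases and Kdm6b and Kdm6a none longer than 14. For each pair only the single best local alignment of the longest coding sequences was taken, so other alike stretches were not counted. In it, Chd8 and Chd7 were 75.1% identical across 48.5% of the Chd8 coding sequence. Med13l and Med13 were 72.2% identical across 49.3%, and Mbd5 and Mbd6 74.8% across 2.53%. The least was aligned for Dnmt3a and Dnmt1, with 21 bases, 0.771% of the Dnmt3a coding sequence. Each run shown lies within 1 coding exon of each gene. The members themselves lie, as whole genes of the same annotation, at chr4:8690406-8867659 (Chd7), chr8:90828352-91054516 (Chd9), chr9:20907209-20959888 (Dnmt1), chr2:153649450-153687730 (Dnmt3b), chrX:18162575-18279936 (Kdm6a), chr15:98831669-98871204 (Kmt2d), chr5:23434441-23504235 (Kmt2e), chr10:127281956-127289018 (Mbd6), chr11:86267033-86357602 (Med13) and chr9:118478212-118486132 (Eomes).

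Libraries held 13759741 to 66558546 counts (median 31827800). In the average of both sexes all 9 targets were lower than with nontargeting shRNA, at 22.9% (Dnmt3a) to 44.8% (Kdm6b) of the control level. Within a sex, the falls of Kdm6b in males (adjusted p = 0.0953) and females (adjusted p = 0.856) and of Setd5 in males (adjusted p = 0.402) did not pass, while the other 15 did. In 2 male libraries the targets did not match what the labels give. Setd5 was at 141 CPM (counts scaled to a common library size and composition) in replicate 1 of the males labelled Setd5 shRNA, inside the 133 to 149 CPM of the male controls, and Kdm6b there was at 23.1 CPM, below their 55.1 to 64.9 CPM. Replicate 1 of the males labelled Kdm6b shRNA was at 44.9 CPM for Setd5, below the controls, and at 39.9 CPM for Kdm6b, above the 17.2 CPM of both other replicates. Results for Kdm6a after Kdm6b shRNA and Kmt2e after Setd5 shRNA are therefore given with and without both. Neuronal markers summed to 4413 to 7239 CPM per library, those of astrocytes to 36.7 to 283 CPM, of radial glia and cycling cells to 58.6 to 152 CPM, and of microglia to 0.437 to 3.09 CPM.

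None of the 10 paralogues changed significantly when its own relative was depleted, in males, in females or in the average of both sexes (edgeR quasi-likelihood test, Benjamini-Hochberg adjustment over the 16145 genes of each comparison, threshold 0.05). DESeq2 called none of the 10 either, and in this fit none had an unadjusted p under 0.05. Med13 after Med13l shRNA was called, as lower, under 3 other models: in the average with replicate number as a block (adjusted p = 0.00438), and in males when these were fitted on their own (adjusted p = 0.0274) or with only the libraries compared (adjusted p = 0.00399). Over all genes and all 9 knockdowns, 2.28% of gene and knockdown combinations passed in males, 2.68% in females and 6.99% in the average, so a count of 0 of 10 lies near the background. Directions were mixed, with 4 of 10 paralogues above the control level in males, 5 of 10 in females and 5 of 10 in the average. The median log2 fold change of the 10 in the average was -0.01, beside medians over all genes between -0.01 and 0.01 in each knockdown.

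**Figure D1:**
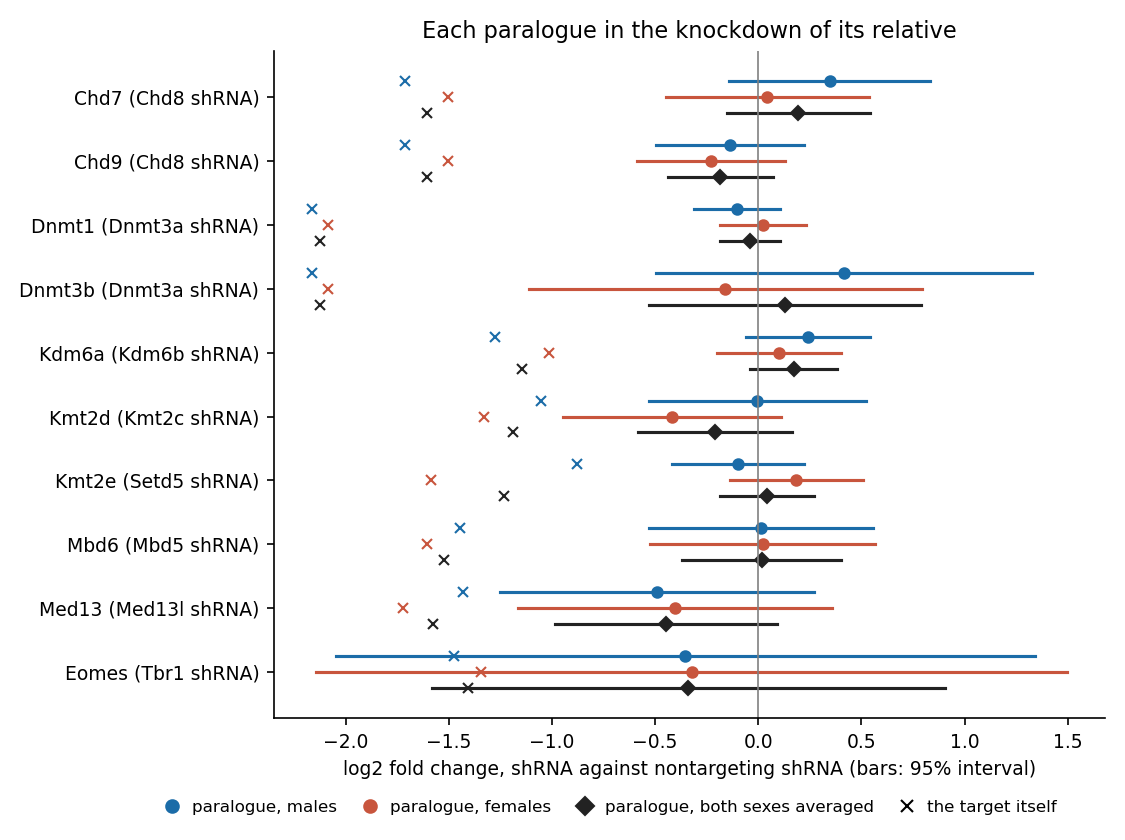
Log2 fold change of each paralogue (circles for males and females, diamonds for both sexes averaged, bars for the 95% interval) in the knockdown of its relative against nontargeting shRNA, with the depleted target itself as crosses. All paralogue intervals cross 0 while the targets lie between -0.88 and -2.16. The widest intervals are those of Eomes and Dnmt3b, and Dnmt1 has the narrowest.

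Chd7 and Chd9, like Chd8, are ATP-dependent chromatin remodellers that carry chromodomains, and Chd7 is the gene mutated in CHARGE syndrome. Chd7 had 6.29, 5.49 and 5.30 CPM in the 3 male Chd8 shRNA libraries and 4.33, 4.26 and 4.84 CPM in the male controls. In females it had 5.83, 3.36 and 2.78 CPM after Chd8 shRNA and 4.13, 3.799 and 3.68 CPM in controls. The male groups did not overlap, which held for 38.9% of all genes in that comparison, whereas the female knockdown libraries lay on both sides of the controls. The log2 fold change was 0.35 (SE 0.24) in males, 0.04 (SE 0.25) in females and 0.19 in the average, with a 95% interval of -0.15 to 0.54 (adjusted p = 0.474), and without Chd8 shRNA female replicate 1 the average was 0.02. Chd7 is at a low level here: the largest count of Chd7 in any library was 319. Chd9 was measured at 62.4, 59.4 and 51.0 CPM in males after Chd8 shRNA, against 64.9, 64.6 and 60.6 CPM, and at 46.8, 54.3 and 46.4 CPM in females, against 48.3, 72.0 and 52.6 CPM. Its groups overlapped in both sexes and its average log2 fold change was -0.18 (95% interval -0.44 to 0.07, adjusted p = 0.330), in a comparison in which 22.3% of all genes passed.

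Dnmt1 copies DNA methylation onto new strands after replication, and Dnmt3b, like Dnmt3a, writes it on unmethylated DNA. Dnmt1 had 70.3, 81.0 and 86.1 CPM in males after Dnmt3a shRNA and 79.6, 83.8 and 91.2 CPM in their controls. The female values were 76.2, 86.2 and 81.8 CPM after Dnmt3a shRNA and 77.3, 85.7 and 77.3 CPM in controls. Those groups overlapped, and the average log2 fold change of -0.04 had the tightest interval of the 10 pairs, -0.19 to 0.11. Dnmt3a itself was at 22.9% of control in the same libraries. Dnmt3b was near the limit of detection, with 9 to 77 counts per library: males had 1.55, 1.37 and 0.681 CPM after Dnmt3a shRNA against 0.893, 0.828 and 0.973 CPM, and females 0.419, 0.762 and 0.819 CPM against 1.06, 0.447 and 0.769 CPM. The estimates of the sexes differed in sign, no group stood apart, and the interval of the average, -0.53 to 0.79, was wide enough to hold a rise of up to 1.73-fold. Only 1.40% of all genes passed in the Dnmt3a comparison.

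Kdm6a (Utx), on the X chromosome, removes the repressive Polycomb methyl mark from histone H3, as Kdm6b does. After Kdm6b shRNA it had 32.2, 26.8 and 27.1 CPM in males, where controls had 24.7, 24.8 and 23.3 CPM. Females had 36.8, 29.5 and 36.9 CPM, where controls had 32.7, 32.2 and 31.3 CPM. All 3 male libraries lay above all 3 controls, in a comparison where 16.1% of all genes were apart in either direction, while 1 of the 3 female libraries lay below its controls. The average log2 fold change was 0.17 (95% interval -0.04 to 0.38, adjusted p = 0.579). The highest of the male values, 32.2 CPM, came from replicate 1, the library that did not match its label, and without both mismatched libraries the average was 0.13 (adjusted p = 0.804). In the Kdm6b comparison 0.966% of all genes passed.

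Kmt2d, like Kmt2c, methylates histone H3 at enhancers, and mutations in it cause Kabuki syndrome. Its levels in males were 106, 92.2 and 106 CPM after Kmt2c shRNA and 97.8, 94.0 and 114 CPM in controls, and in females 66.5, 45.7 and 68.1 CPM against 62.5, 104 and 74.8 CPM. The male groups were interleaved, and in females replicate 2 was the highest of the controls and the lowest of the knockdown libraries. Without nontargeting shRNA female replicate 2 the female log2 fold change went from -0.42 to -0.19. The average log2 fold change was -0.21 (95% interval -0.58 to 0.16), and the percentage of all genes that passed was 0.694%.

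Kmt2e carries a SET domain like that of Setd5, together with a PHD finger that reads methylated histone H3. In males it had 130.1, 122 and 152 CPM after Setd5 shRNA and 138, 146 and 148 CPM in controls, and in females 156, 167 and 102 CPM against 97.3, 154 and 122 CPM. The groups overlapped and the estimates differed in sign (-0.10 in males, 0.18 in females). The average was 0.04 (95% interval -0.18 to 0.27) with all libraries, where 5.30% of all genes passed, and 0.06 without the 2 mismatched libraries.

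Mbd6 and Mbd5 have methyl-CpG-binding domains and join the BAP1 histone deubiquitinase complex. Mbd6 was at 16.99, 9.12 and 10.9 CPM in males after Mbd5 shRNA and at 14.5, 10.6 and 11.6 CPM in controls. Females had 11.7, 11.03 and 9.34 CPM after Mbd5 shRNA and 12.4, 9.85 and 9.36 CPM in controls. Both pairs of groups overlapped almost fully, and the average log2 fold change was 0.02 (95% interval -0.37 to 0.40). In this knockdown 0.663% of all genes passed.

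Med13, like Med13l, docks the kinase module onto Mediator, the complex that links transcription factors to RNA polymerase II. Male libraries had 105, 121 and 100.3 CPM of Med13 after Med13l shRNA, and male controls 151, 138 and 168 CPM. Female libraries had 43.3, 179.6 and 85.9 CPM after Med13l shRNA, and female controls 83.1, 222 and 103 CPM. Males did not overlap, as held for 41.8% of all genes there. Females overlapped across numbers, but each knockdown library was below the control of the same replicate number. The log2 fold change was -0.49 (SE 0.38) in males, -0.40 (SE 0.38) in females and -0.45 in the average (95% interval -0.99 to 0.09, adjusted p = 0.233), where 24.1% of all genes passed. Med13 was thus lower in 6 of 6 libraries than in the control of the same number and sex. The share of all genes lower in 6 of 6 was not taken, so this count is a description only. With replicate number as a block in the model, the average was -0.47 (adjusted p = 0.00438, among 41.5% of all genes), although same-numbered libraries of this knockdown deviated together in females and not in every male pair. Without Med13l shRNA female replicate 2 it was -0.77 (adjusted p = 0.0245). It was also called in males when the sexes were fitted separately (-0.48, adjusted p = 0.0274). Without nontargeting shRNA female replicate 2, the average was -0.16 and the female value turned to 0.15.

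Eomes (Tbr2) marks the intermediate progenitors of the cortex, the cells that precede Tbr1-expressing neurons. In males Eomes was at 13.5, 5.14 and 2.84 CPM after Tbr1 shRNA and at 18.1, 6.67 and 2.89 CPM in controls, and in females at 2.63, 1.79 and 1.28 CPM against 3.38, 1.75 and 2.07 CPM. The groups overlapped, and the male values ran from high to low with replicate number in both. The average log2 fold change was -0.34 with a 95% interval of -1.58 to 0.90, the widest of the 10, in a comparison where 1.33% of all genes passed. Without nontargeting shRNA male replicate 1 the average turned to 0.13.

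The size of change that these libraries could show differs between genes. In counts simulated with the spread of all 66 libraries, better-expressed genes were changed in the Chd8 groups of both sexes. Of 100 genes changed by 1 on the log2 scale 91% were recovered, and of 100 changed by 0.5, 46%. Chd7 and Dnmt3b were too low to be among the genes drawn, and all other genes were left unchanged, unlike in the real comparison. These shares therefore do not give the sensitivity for each member. The upper 95% bounds of the average correspond to folds of 1.05 for Chd9, 1.08 for Dnmt1, 1.07 for Med13, 1.12 for Kmt2d, 1.21 for Kmt2e, 1.31 for Kdm6a, 1.32 for Mbd6, 1.45 for Chd7, 1.73 for Dnmt3b and 1.87 for Eomes. A rise by more than these factors lay outside the interval, and smaller rises lay within it. These bounds are from the fit without replicate number as a block, with the 2 mismatched libraries kept. They depend on that model: the SE of the Med13 average was 0.27 there and 0.14 with the block.

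In RPKM, counts scaled for exon length and library size, the median of the 6 nontargeting libraries was 13.6 for Kmt2e, 13.4 for Med13, 11.1 for Dnmt1, 4.81 for Kmt2d, 3.35 for Kdm6a, 2.71 for Chd9, 2.50 for Mbd6, 0.755 for Eomes, 0.304 for Chd7 and 0.169 for Dnmt3b. Neighbours in this order overlapped in range except at 3 steps, between Dnmt1 and Kmt2d, between Eomes and Chd7 and between Chd7 and Dnmt3b, and Eomes alone spanned 0.421 to 4.36 RPKM. The targets were at 7.03 for Chd8, 23.6 for Dnmt3a, 7.87 for Kdm6b, 4.40 for Kmt2c, 7.32 for Setd5, 2.28 for Mbd5, 5.13 for Med13l and 9.48 for Tbr1. Kmt2d and Mbd6 were thus present at about the level of their relatives, Med13 and Kmt2e above theirs, and Chd7, Dnmt3b and Eomes far below.

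Across all 9 knockdowns, the 90 combinations of paralogue and shRNA gave no call in males, 1 in females and 4 in the average, and none of these was for a paralogue's own relative. As shares, 0, 1 and 4 of 90 stand beside the background of 2.28%, 2.68% and 6.99% of all genes. At an unadjusted p under 0.05, 6 of 90 passed in males and 7 in females, where 9.24% and 10.0% of all gene and knockdown combinations did, and DESeq2 called 2 in each sex and 4 in the average. The 4 calls of the average fell in the Ash1l and Med13l knockdowns, in which 6.16% and 24.1% of all genes passed, and concerned Dnmt1, Kmt2d and Kmt2e.

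**Figure D2:**
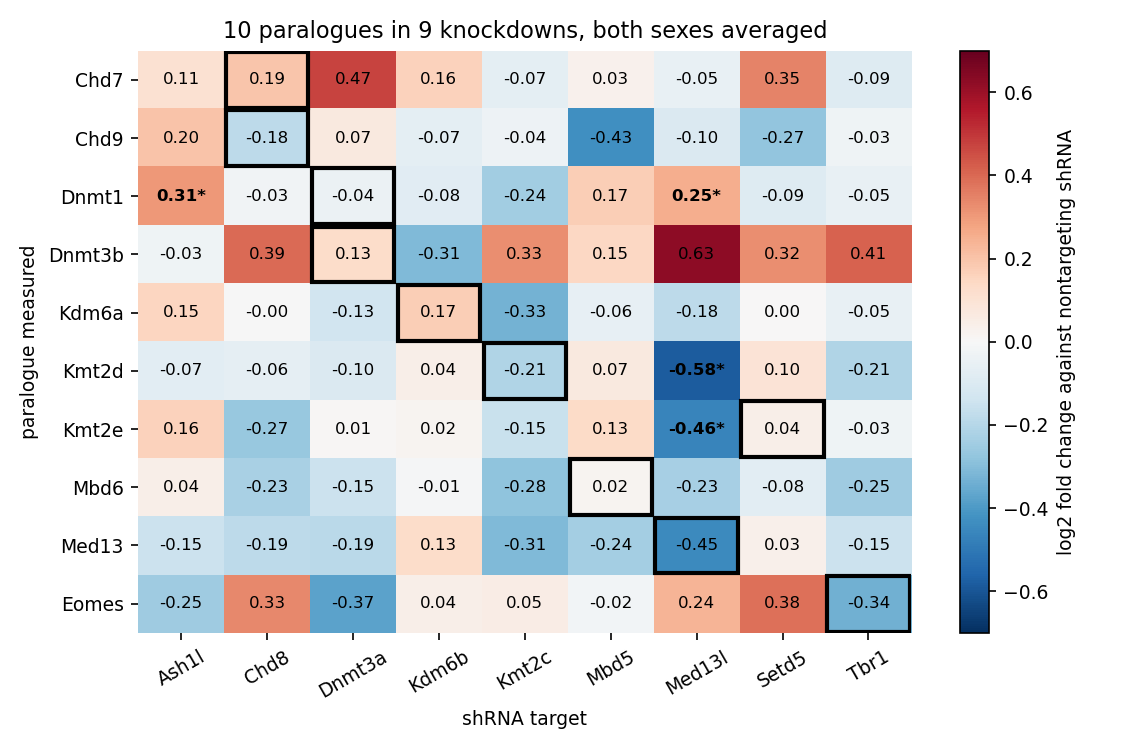
Log2 fold change of the 10 paralogues (rows) in the 9 knockdowns (columns) against nontargeting shRNA, both sexes averaged. Outlined cells are the knockdown of the gene's own relative, and stars mark the 4 combinations that passed at an adjusted p under 0.05: Dnmt1 after Ash1l (0.31) and Med13l (0.25), and Kmt2d (-0.58) and Kmt2e (-0.46) after Med13l. No outlined cell carries a star.

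Dnmt1 was higher after Ash1l shRNA. Ash1l, a histone methyltransferase, is of another family than Dnmt1. Males had 94.3, 102 and 125 CPM of Dnmt1 and females 95.02, 99.9 and 96.3 CPM, while the controls had 79.6, 83.8 and 91.2 CPM in males and 77.3, 85.7 and 77.3 CPM in females. All 6 knockdown libraries lay above all 6 controls, which 4.53% of all genes did in one direction or the other. The average log2 fold change was 0.31 (SE 0.07, adjusted p = 0.00449). With only the 12 libraries compared in the fit, it was 0.31 and missed the threshold (adjusted p = 0.0588). After Med13l shRNA Dnmt1 had 107, 91.6 and 115 CPM in males and 84.1, 91.8 and 102 CPM in females. Here the male groups did not overlap, as held for 41.8% of all genes in that comparison, and the female groups did. The average was 0.25 (SE 0.07, adjusted p = 0.00785).

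Both Kmt2 relatives fell after Med13l shRNA. The sum of the 8 neuronal markers was also low in that knockdown. It was 4907 to 5121 CPM (median 4971) in males and 4413 to 5533 CPM (median 4480) in females. Both ranges lay below all controls of the same sex, whose medians were 6399 and 6336 CPM. This was not particular to Med13l shRNA. After Chd8 shRNA the sums, 5309 to 5766 CPM in males and 4996 to 5623 CPM in females, also lay below all controls of their sex. The same held for males with Tbr1 shRNA and females with Kmt2c shRNA. A sum is weighted to its highest genes, so it does not show that each of the 8 was low. The part of these markers in the values of Kmt2d, Kmt2e and Med13 was not tested. Kmt2e had 117, 106 and 113 CPM in males and 65.8, 97.3 and 90.4 CPM in females, where controls had 138, 146 and 148 CPM and 97.3, 154 and 122 CPM. The male groups were apart, as were 41.8% of all genes in that comparison. In females the highest knockdown library and the lowest control met at 97.3 CPM. The log2 fold change was -0.46 in the average (SE 0.11, adjusted p = 0.00192), -0.56 in females (adjusted p = 0.0164), where 10.2% of all genes passed, and -0.36 in males (adjusted p = 0.172). Kmt2d had 86.4, 72.7 and 72.4 CPM in males and 32.4, 63.1 and 46.3 CPM in females, where controls had 97.8, 94.0 and 114 CPM and 62.5, 104 and 74.8 CPM. It was below control in each sex, without overlap in males, which again held for 41.8% of all genes. The average of Kmt2d was -0.58 (SE 0.19, adjusted p = 0.0174). The Kmt2d average missed the threshold without Med13l shRNA female replicate 1 (-0.47, adjusted p = 0.0938) or nontargeting shRNA female replicate 2 (-0.46, adjusted p = 0.0942). The female Kmt2e value did so too, at -0.40 (adjusted p = 0.252) and -0.37 (adjusted p = 0.248), and also in a separate fit of the females (adjusted p = 0.0922) or a fit of only the libraries compared (adjusted p = 0.355). Of the targets other than Med13l, Chd8 was also lower in this knockdown (log2 fold change -0.29, adjusted p = 0.00591).

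**Figure D3:**
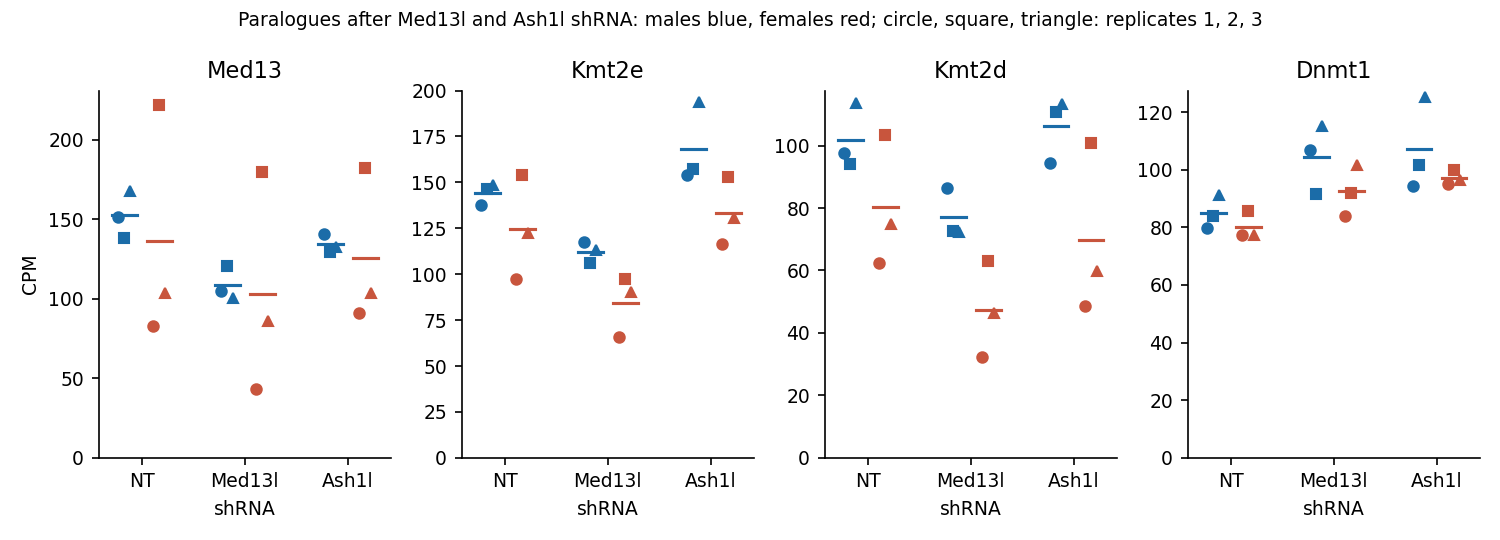
CPM of Med13, Kmt2e, Kmt2d and Dnmt1 in each library with nontargeting (NT), Med13l and Ash1l shRNA, males in blue and females in red, with group means as lines and the marker shape giving the replicate number. Kmt2e and Kmt2d sit lower and Dnmt1 higher after Med13l shRNA, and female replicate 2 is the highest for Med13 in each of the 3 treatments.

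With replicate number as a block, 3 of the 90 combinations passed in males, 4 in females and 10 in the average, where 7.01%, 7.80% and 15.5% of all gene and knockdown combinations did. Against nontargeting shRNA, several further shifts passed with that block and not without it, in knockdowns where same-numbered libraries deviated together in both sexes. Those named next also passed without the block in the contrast against the other 8 knockdowns, given below. Chd7 after Dnmt3a shRNA was at 5.48, 6.22 and 7.85 CPM in males and 4.99, 4.96 and 5.38 CPM in females, all above the 3.68 to 4.84 CPM of the 6 controls, as 1.72% of all genes were apart in that comparison. Its average was 0.47 without the block (adjusted p = 0.227) and 0.47 with it (adjusted p = 0.0296, among 6.97% of all genes). Chd9 after Mbd5 shRNA, at 46.6, 51.4 and 42.6 CPM in males and 33.4, 52.5 and 42.9 CPM in females, was at -0.43 (adjusted p = 0.118). With the block it was called (adjusted p = 0.00764, among 3.32% of all genes). After Kmt2c shRNA, Dnmt1 was at -0.24 and Kdm6a at -0.33 on the log2 scale. Both missed the threshold without the block and passed with it (adjusted p = 0.00777 and 0.0159, among 2.97% of all genes). Kmt2e after Chd8 shRNA was at -0.27, and passed with the block (adjusted p = 0.0262, among 36.9% of all genes).

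A second contrast set each knockdown against the mean of the other 8, averaged over the sexes, which uses no control library and removes what all infected and depleted cultures share. One paralogue was called for its own relative: Kdm6a after Kdm6b shRNA, at 0.25 (SE 0.08, adjusted p = 0.0325), among 10.4% of all genes called there. This call was lost without the 2 mismatched libraries (0.20, adjusted p = 0.141) or Kdm6b shRNA male replicate 1 alone (adjusted p = 0.147). It was also lost without female replicate 1 or 3 of Kdm6b shRNA (both adjusted p = 0.104), and with no filter on low counts (adjusted p = 0.0536). Against nontargeting shRNA, Kdm6a alone of the 10 had its highest of 9 averages in the knockdown of its own relative. Every gene has its highest average in 1 of the 9 knockdowns, so 1 such gene among 10 carries no test. In males alone, Kdm6a was highest after Ash1l shRNA (0.243, against 0.241 after Kdm6b shRNA). Med13 after Med13l shRNA was at -0.32 (adjusted p = 0.244), and at -0.37 with the replicate block (adjusted p = 0.00285, among 49.7% of all genes). The other 8 own pairs ranged from -0.39 (Eomes) to 0.17 (Mbd6), and none of those passed.

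The 12 other calls of this contrast were in knockdowns of genes that are not the member's relative, as are 80 of the 90 combinations. After Ash1l shRNA, where 16.4% of all genes passed, 4 of 10 passed, all higher: Chd9 (0.33), Dnmt1 (0.32), Kmt2e (0.25) and Kdm6a (0.22). After Kmt2c shRNA, with 6.39% passing, Kdm6a (-0.32) and Dnmt1 (-0.30) were lower. Following Med13l shRNA, Kmt2d (-0.53) and Kmt2e (-0.45) were lower and Dnmt1 (0.26) higher, where 34.8% passed. The remaining calls were Kmt2e after Chd8 shRNA (-0.23, with 34.3% passing), Chd7 after Dnmt3a shRNA (0.39, with 6.14%) and Chd9 after Mbd5 shRNA (-0.38, with 5.70%). Leaving out 1 of 54 libraries in turn ended the Chd7 call in 35 fits and the Kdm6a call after Ash1l shRNA in 19. Calls also ended without single Chd8 shRNA libraries for Kmt2e (largest adjusted p = 0.124), Ash1l shRNA libraries for Kmt2e (0.186), Mbd5 shRNA libraries for Chd9 (0.109), and Kmt2c shRNA female replicate 2 for Kdm6a (0.0608). With no filter on low counts, 4 of these calls missed the threshold: Kdm6a (adjusted p = 0.0831) and Kmt2e (0.0663) after Ash1l shRNA, Kmt2e after Chd8 shRNA (0.0680) and Chd7 after Dnmt3a shRNA (0.0772). With only the libraries compared, Kdm6a after Ash1l shRNA (0.0517) and Chd7 after Dnmt3a shRNA (0.0637) missed it too, and Kdm6a did so with RLE size factors (0.0583), in DESeq2 (0.0521) and with a filter of 20 counts in 3 libraries (0.0525). Because each knockdown is part of the mean for all others, these values are not independent of each other.

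No paralogue was shown to respond differently in the sexes: none of the 90 interaction terms passed, and none had an unadjusted p under 0.05. With nontargeting virus against no virus none of the 10 passed in either sex, and 0% of all genes did.

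The wider families were taken from lists of related genes, for which the same fits were read. Of 7 other CHD genes after Chd8 shRNA, Chd1l rose and Chd3 and Chd4 fell in the average, with a list median of -0.14 against 0.00 over all genes, of which 22.3% passed. Chd1l, a remodeller activated at DNA damage, had 6.87, 5.66 and 8.52 CPM in males and 10.5, 5.95 and 8.38 CPM in females, all above the 3.16 to 4.58 CPM of the 6 controls, in a comparison where 12.4% of all genes were apart in either direction. Its log2 fold change was 0.98 (SE 0.14, adjusted p = 2.08e-07), and it also passed in each sex alone. Chd3 (-0.27, adjusted p = 0.0199) and Chd4 (-0.39, adjusted p = 0.0312) are the ATPases of the NuRD complex. Chd3 was without overlap within each sex, as were 38.9% of all genes in males and 21.5% in females, and Chd4 overlapped in both. Without nontargeting shRNA female replicate 2 both missed the threshold (adjusted p = 0.0671 for Chd3 and 0.164 for Chd4). Chd3 also missed it without Chd8 shRNA male replicate 2 (adjusted p = 0.0626), and Chd4 in 6 of 12 such fits. With no filter on low counts both missed it (adjusted p = 0.0664 and 0.0575), and Chd4 did so with only the libraries compared (adjusted p = 0.0702).

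In the kinase module of Mediator, 1 of 5 genes passed after Med13l shRNA, where 24.1% of all genes did. Cdk19, one of the alternative kinases of the module, had 19.9, 23.8 and 20.5 CPM in males and 12.1, 25.1 and 19.8 CPM in females, against 40.2, 44.8 and 59.0 CPM and 38.9, 48.2 and 45.9 CPM in controls. Every knockdown library was below every control, where 10.2% of all genes were apart in either direction, and the log2 fold change was -1.19 (SE 0.14, adjusted p = 8.67e-09). Its own paralogue Cdk8 was at 0.00 (SE 0.09). Setd7, a SET-domain lysine methyltransferase, rose after Ash1l shRNA by 0.76 (SE 0.16, adjusted p = 0.000741), from 70.3 to 119.7 CPM in the 6 controls to 139 to 186 CPM in the 6 knockdown libraries, the only one of its list of 7 to pass. Of all genes 6.16% passed there and 4.53% had no overlap. Nsd2, a methyltransferase of histone H3, was at -0.29 after Setd5 shRNA (adjusted p = 0.0463), 1 of the same 7, where 5.30% of all genes passed. The mismatched male replicate 1 was at 311 CPM, above all controls, and without that library the value was -0.41 (adjusted p = 0.00170). Leaving out 1 library in turn ended the Nsd2 call in 9 of 12 fits. So did RLE size factors (adjusted p = 0.0628), no filter on low counts (0.115), a filter of 20 counts in 3 libraries (0.0522), only the libraries compared (0.365) and no virus as control (0.0962). None of 5 tested DNA methylation genes passed after Dnmt3a shRNA (1.40% of all genes), none of 12 KDM6 and COMPASS genes after Kdm6b (0.966%) or Kmt2c shRNA (0.694%), none of 14 MBD and BAP1 complex genes after Mbd5 shRNA (0.663%) and none of 3 tested T-box genes after Tbr1 shRNA (1.33%). At such shares a count of 0 in a short list is near the background. The 12 include Uty, whose average over the sexes cannot be estimated because females had almost no counts of it.

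For Eomes in both sexes, and Med13, Dnmt3b and Chd7 in females, more of the spread lay between replicate numbers than between treatments. The 2 shares of Chd7 were close (31.1% and 30.6%). Neither kind of share is adjusted for there being 11 treatments and 3 numbers, so the 2 kinds are on unlike scales. In males Eomes had a median of 17.1 CPM over the 11 libraries numbered 1, 7.09 CPM over those numbered 2 and 2.89 CPM over those numbered 3. Number 1 was highest in 10 of 11 male treatments and number 3 lowest in all 11. The exception was Ash1l shRNA, with 6.06 CPM in number 1 and 14.2 CPM in number 2. Number 1 was also highest in 11 of 11 female treatments, with a median of 4.40 CPM against 1.75 and 1.39 CPM. The share of the spread of log2 CPM that lay between numbers was 85.7% in males, above that of 99.98% of genes tested, and 72.0% in females. Treatments accounted for 4.35% and 9.15%. The summed markers of intermediate progenitors other than Eomes did not follow this order in males, with medians of 51.2, 46.4 and 48.1 CPM for numbers 1, 2 and 3, and in females they were lowest in number 1 (40.2, 57.3 and 49.7 CPM). This sum is weighted to its highest genes, Btg2 (median 17.8 CPM over the 66 libraries) and Gadd45g. Neurog2, Mfap4 and Neurod4 had medians of 0.697, 0.153 and 0.0775 CPM and add little to it. The sum therefore does not show whether each of these markers, or the number of intermediate progenitors, followed the order of Eomes. The part of these cells in the Eomes differences was not tested.

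**Figure D4:**
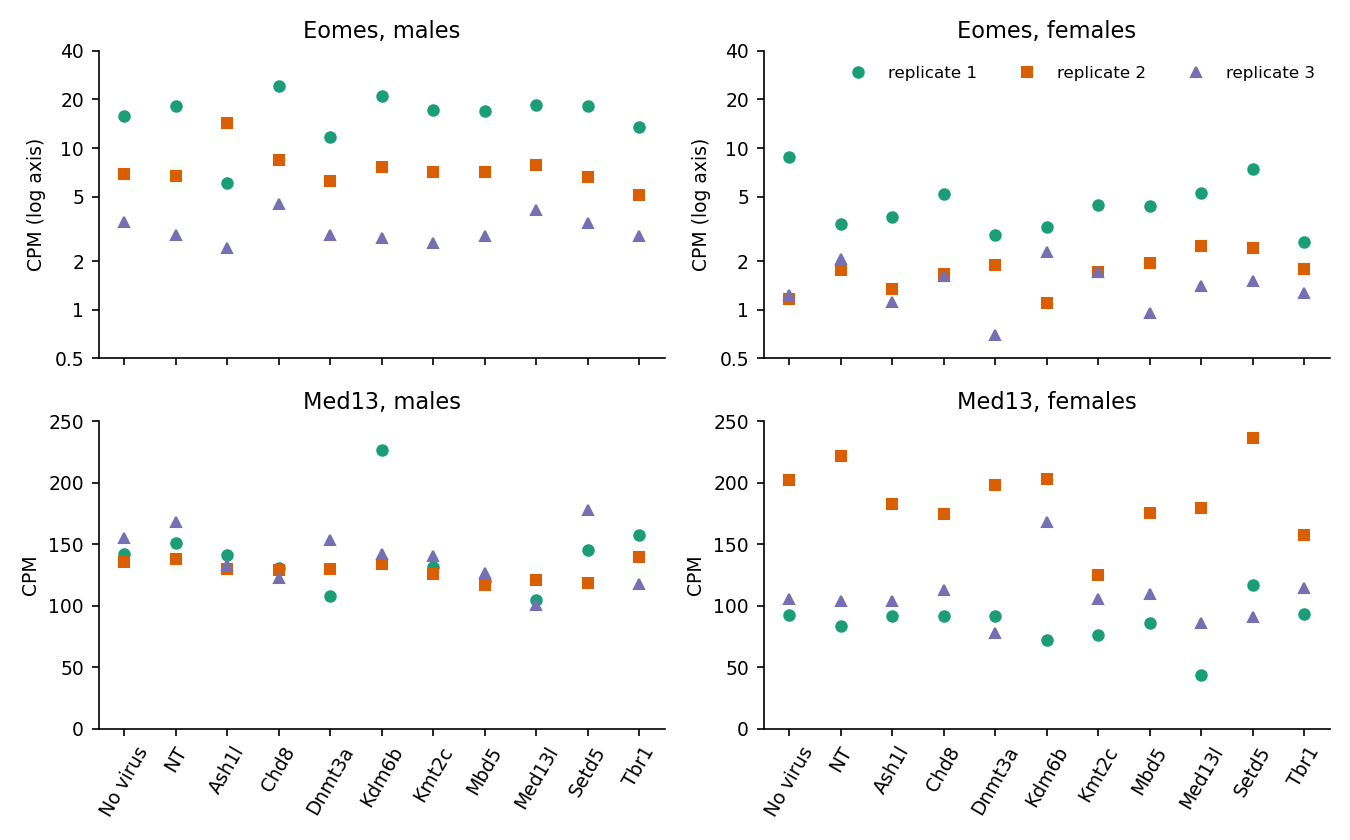
CPM of Eomes (top, log axis) and Med13 (bottom) in every library, by treatment, with circles, squares and triangles for replicates 1, 2 and 3. Left panels are males and right panels females. Male Eomes is highest in number 1 and lowest in number 3 in all treatments but Ash1l shRNA, where number 2 is highest, and the female libraries numbered 2 have the highest Med13 in 11 of 11 treatments.

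Med13 followed number in females: number 2 was highest in 11 of 11 female treatments, with a median of 182 CPM against 91.2 and 105 CPM, and numbers accounted for 73.7% of the spread. In males the share was 4.92%, and the highest library was the mismatched replicate 1 of Kdm6b shRNA, at 226 CPM. Over all genes the median share between numbers was 8.36% in males and 25.4% in females. In females numbers accounted for 43.3% of the spread of Dnmt3b, with number 2 lowest in 10 of 11 treatments, and for 31.1% of that of Chd7, against 15.2% and 30.6% between treatments. Among the other members Dnmt1 in males was highest in number 3 in 11 of 11 treatments, with a share of 18.6%.

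Kdm6a escapes inactivation of the X chromosome and has a Y-linked counterpart, Uty, so both were compared between the sexes. Kdm6a ranged from 19.4 to 32.2 CPM over the 33 male libraries and from 20.6 to 41.9 CPM over the 33 female libraries, with medians of 23.7 and 29.9 CPM. Female means were above male means in 11 of 11 treatments, and in 7 of these all female libraries lay above all male libraries. The exceptions were the Ash1l, Dnmt3a, Kdm6b and Kmt2c shRNA groups. The share of all genes apart between the sexes is not given, so the 7 treatments are a description only. With nontargeting shRNA the difference, males minus females, was -0.40 (SE 0.15), which did not pass after adjustment over all genes. With no virus it was -0.48 (SE 0.15), and with each shRNA it lay between -0.58 (Setd5) and -0.22 (Ash1l). Uty ranged from 15.5 to 46.2 CPM in males, with its highest value in the mismatched replicate 1 of Kdm6b shRNA, and had 0 to 4 counts in any female library. Sex and culture cannot be told apart for these values, since the cultures of the sexes were separate.

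**Figure D5:**
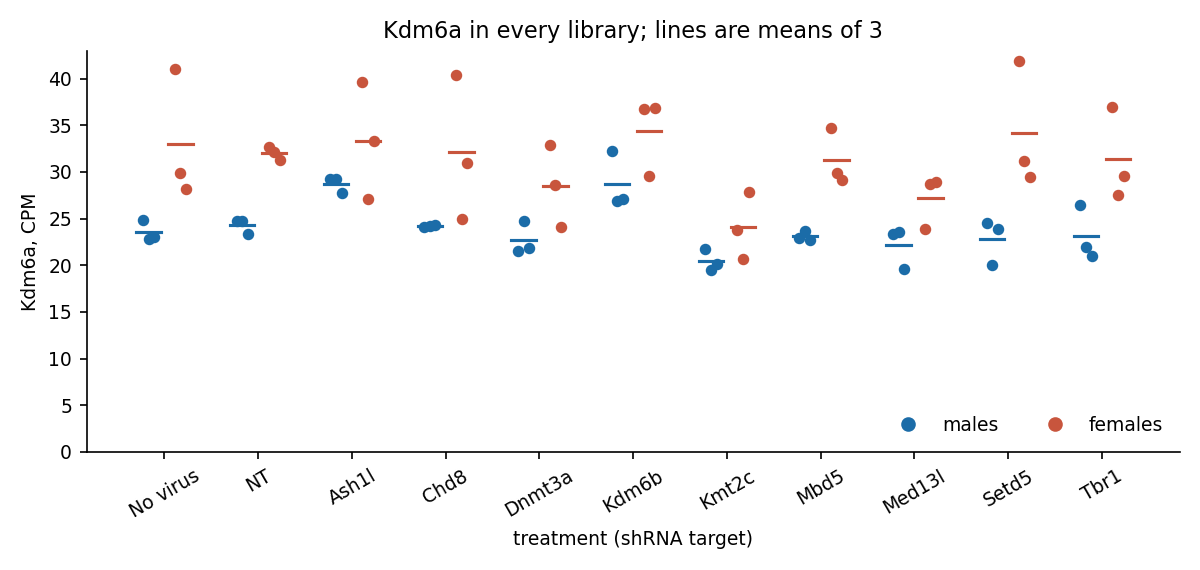
CPM of Kdm6a in every library by treatment, males in blue and females in red, with lines at group means. Female means are above male means in 11 of 11 treatments, and the lowest values in both sexes, 19.4 and 20.6 CPM, are with Kmt2c shRNA.

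As a description of likeness, the group means of log2 CPM, centred within sex, were compared over the 22 groups. Med13 and its relative Med13l had a Pearson r of 0.74, Kmt2d and Kmt2c 0.48, and Kdm6a and Kdm6b -0.66, while the other 7 pairs lay between -0.13 and 0.21. Whether groups share cultures is not given in the labels, and each r includes the group in which the relative was depleted. The 2 genes most like each member by this measure were Nktr (0.95) and Uggt2 (0.93) for Med13, Fam193a (0.92) and Ep400 (0.91) for Kmt2d, Gabbr2 (0.92) and Atf7ip (0.91) for Kmt2e, and Pnpla6 (0.91) and Cog7 (0.87) for Dnmt1. For Kdm6a they were Pja2 (0.87) and Mturn (0.87), for Chd9 Trim2 (0.87) and Rtl8c (0.86), for Mbd6 Mast1 (0.87) and Snrnp70 (0.87), and for Chd7 Lyrm9 (0.86) and Rgl1 (0.81). Eomes was most like Foxn2 (0.86) and Sbds (0.82), and Dnmt3b most like Arrdc2 (0.78) and Morn5 (0.77). With 16145 genes to choose from and 22 points, the highest r of a gene is a maximum over many and carries no test.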

How the data were processed

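Libraries were aligned with STAR to mm10 and counted with featureCounts, per the submitters' processing notes, and the deposited table holds whole-number counts per gene that the authors did not normalize. Rows without a symbol (18483 of 48716, 0.69 to 1.41% of counts) and 6 columns that match no sample were left out, and repeated symbols were summed. Columns were tied to samples by name. All 66 libraries were fitted with 1 mean per group in edgeR 4.0.16 (R 4.3.3, limma 3.58.1: TMM scaling, filterByExpr, robust quasi-likelihood test), with Benjamini-Hochberg adjustment over the 16145 genes of each comparison and a threshold of 0.05. Contrasts were each shRNA against nontargeting shRNA in males, in females and averaged, the difference between sexes, and each shRNA against the other 8. All contrasts against nontargeting shRNA share those 6 libraries. DESeq2 1.42.0 was an alternative, and the code was tested on simulated data. The members, the lists of related genes and the comparisons were chosen with earlier results of these data known, and related genes outside the 10 are named where they passed in the knockdown of their own family, or as the 2 genes most like a member (Cdk8 and Uty were named after their values were seen). Labels give replicate numbers 1 to 3 without saying what they mark. Deviations of same-numbered libraries from their group means correlated above 0.1 in every pair for 6 of 9 knockdowns in males (not Ash1l, Kdm6b or Med13l) and 8 of 9 in females (not Kdm6b). Of counts from 1 to 20, 26.7% were odd, against 49.1% of high counts, so low counts may hold both reads of a pair, and halved counts were an alternative. Total counts per library were 13759741 to 66558546.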

Additional observations from a re-analysis of the deposited data

How the results depend on the processing

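No called value changed sign under any alternative run. Over the 90 combinations in males (0 calls), DESeq2, separate fits per sex and no virus as control each gave 2 calls. A filter of 20 counts in 3 libraries, halved counts, and leaving out the 2 mismatched libraries each gave 1, and fitting only the libraries compared gave 4. In females (1 call), DESeq2 and no virus as control gave 2, while separate fits and fitting only the libraries compared gave 0. For a paralogue's own relative in males (0 calls), the separate fits and the fits of only the libraries compared each gave 1, Med13 (adjusted p = 0.0274 and 0.00399). Against the other 8 knockdowns (1 call), no filter on low counts gave 0 (adjusted p = 0.0536 for Kdm6a) and also ended 4 of the 12 calls for other targets, and leaving out the 2 mismatched libraries gave 0 too. The latter left the count for own relatives against nontargeting shRNA at 0.

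With the replicate block, calls over the 90 combinations were 3 in males, 4 in females and 10 in the average, where 7.01%, 7.80% and 15.5% of all gene and knockdown combinations passed. Own relatives gave 1 in the average (Med13) and 2 against the other 8 knockdowns (Kdm6a and Med13), and none in a single sex. The cause of these shifts was not tested.

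Leaving out 1 library in turn, own relatives called ranged from 0 to 0 in each sex, from 0 to 1 in the average and from 0 to 2 against the other 8 knockdowns. Calls over the 90 combinations ranged from 0 to 2 in males, 0 to 3 in females and 3 to 5 in the average. The Kdm6a sex difference with nontargeting shRNA ranged from -0.43 to -0.37. Where an arm kept 2 libraries, the spread was pooled over all groups. The members with the fewest counts per library were Dnmt3b (9 to 77), Eomes (12 to 793) and Chd7 (42 to 319).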
